A study of Mus musculus with 2 samples.

Results

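The 10 genes described here encode enzymes that build triglyceride and the glycerol 3-phosphate it is built on. They were chosen by symbol, as Gpam, Gpat3, Gpat4, Agpat2, Lpin1, Dgat1, Dgat2, Pck1, Gpd1 and Gk, and all 10 were found among the 27179 genes of both count tables. The tissue was interscapular brown adipose tissue (iBAT), the thermogenic fat depot between the shoulder blades, of untreated mice of the C57BL/6N strain aged 20 days. One group was wild-type (WT) and the other was labelled a knockout (Ucp1-KO) of uncoupling protein 1, the carrier through which brown adipocyte mitochondria turn respiration into heat. Each genotype was represented by 1 library made from the pooled tissue of 3 animals, so the libraries hold every cell type of the depot and an average over animals.

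In the glycerol phosphate pathway, glycerol-3-phosphate acyltransferases (GPATs) attach a fatty acid to glycerol 3-phosphate and acylglycerol-phosphate acyltransferases (AGPATs) attach the next, which gives phosphatidic acid. Lipins remove the phosphate to leave diacylglycerol, and diacylglycerol acyltransferases (DGATs) add the last fatty acid. Glycerol 3-phosphate comes from glucose through glycerol-3-phosphate dehydrogenase (Gpd1), from pyruvate and amino acids through phosphoenolpyruvate carboxykinase (Pck1) in the route called glyceroneogenesis, or from free glycerol through glycerol kinase (Gk). Brown fat is known for burning and rebuilding its triglyceride stores at the same time, and for a glycerol kinase activity that white fat largely lacks.

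Neither genotype had replicates among the samples used here, so no p-value or standard deviation is given. Every difference below is between these 2 libraries. Counts were divided by size factors to give normalized counts, and the log2 ratio is that of Ucp1-KO over WT. Its 95% interval covers counting error only, not the spread between animals. The size rule was a difference of 2-fold or more, a log2 ratio of 1 or beyond in either direction, and 15212 genes with a mean normalized count of at least 10 were examined.

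The libraries held 52950913 counts for WT and 53216727 for Ucp1-KO. The targeted gene, Ucp1, was at 12.7% of the WT level in the library labelled Ucp1-KO, with 366473 and 37853 counts. Gene counts do not show which of its exons those reads came from. The series describes the mice as male, but the Y-linked Ddx3y, Uty, Kdm5d and Eif2s3y were at 0 counts in WT, which allows up to 6 counts (3 read pairs) each, and had 3446, 798, 570 and 491 counts in Ucp1-KO. Xist, expressed from the inactive X chromosome, had 32380 counts in WT and 16478 in Ucp1-KO. The Ucp1-KO pool thus held Y-linked transcripts together with Xist, as a pool of both sexes would, and WT held Xist without counts of these. Sex of the animals and genotype therefore cannot be told apart here. All 20 markers of skeletal muscle passed the size rule as lower in Ucp1-KO, as did 9.55% of all genes examined. In sum the 20 took 0.716% of the WT and 0.0887% of the Ucp1-KO counts. Acta1 had 76457 and 5916 counts and Myh4 57748 and 6751. Fewer cells of a type and less RNA per cell cannot be told apart in bulk tissue. Genes encoded by mitochondrial DNA took 22.4% of the WT and 36.7% of the Ucp1-KO counts.

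To show regulatory sequence for a gene that was lower and a gene that was higher in Ucp1-KO, the bases from 250 to 21 before the RefSeq start of Lpin1 and of Gk are printed here 5′ to 3′ on the strand of the gene, from build GRCm38.p6. The Lpin1 window is chr12:16610987-16611216 and the Gk window chrX:85776840-85777069, both on the minus strand. Whether either start is the 5′ end of the gene span given below in build GRCm39 was not tested. Capitals mark GC boxes (GGGCGG or CCGCCC) and E-boxes (CACGTG). Gk has a further GC box that begins 13 bases before the start, past the bases shown.
Lpin1: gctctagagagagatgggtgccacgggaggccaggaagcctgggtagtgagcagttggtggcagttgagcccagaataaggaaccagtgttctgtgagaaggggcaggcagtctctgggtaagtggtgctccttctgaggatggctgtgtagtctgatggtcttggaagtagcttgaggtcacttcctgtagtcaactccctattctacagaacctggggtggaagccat
Gk: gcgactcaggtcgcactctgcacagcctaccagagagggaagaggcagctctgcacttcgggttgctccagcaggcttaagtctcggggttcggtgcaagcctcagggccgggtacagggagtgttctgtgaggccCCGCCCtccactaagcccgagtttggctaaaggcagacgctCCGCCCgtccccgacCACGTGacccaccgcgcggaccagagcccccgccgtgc

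Windows of 250 bases before a start were found for 6 of the 10 genes, and not for Gpat4, Dgat1, Dgat2 and Gpd1. These were 7 windows, as Gpam had more than 1. A GC box lay in those of Gpam, Gpat3, Agpat2, Pck1 and Gk and in 32.7% of all 32851 windows in the table. Neighbouring GC boxes shared 1 base in Agpat2 and in Gpat3, and no other matches overlapped. The E-box lay in that of Gk and in 6.02% of all windows. CCAAT or its reverse, ATTGG, was found for Gpam, in a different window from its GC box, against 33.8% of all windows. None of the 6 genes held TGACGTCA (a full cyclic AMP response element), the DR1 element of nuclear receptors or TGATGCAAT (a C/EBP-ATF site) on either strand. Of all windows, 1.55%, 0.0335% and 0.167% held them. Variant forms of these elements were not searched. These are letter matches in a fixed window and were read no further.

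The genes of the pathway differed between the libraries in both directions. Of the 10, 6 were lower and 4 higher in Ucp1-KO, where Gpat4 and Pck1 each changed sign under 1 other scaling, with a median log2 ratio of -0.17 beside -0.0016 for all genes examined. Together they took 1.66% of the WT and 1.12% of the Ucp1-KO counts, and Gpd1 held 53.1% and 48.5% of these. The library totals include mitochondrially encoded genes, at 22.4% in WT and 36.7% in Ucp1-KO. After normalization the 10 genes summed to 792578 in WT and 660205 in Ucp1-KO. Lpin1 alone passed the size rule as lower, as did 9.55% of all genes examined, and none passed it as higher, as did 7.42%. In either direction the rule took in 17.0% of all genes. The 4 higher genes had intervals wholly above 0, like 31.5% of all genes, and the 6 lower ones wholly below 0, like 30.5%. All 10 intervals thus left out 0, against 62.0% of all genes examined, so an interval without 0 is common at this depth. Among the 6515 genes at least as abundant as Gpat3, the least abundant of the 10, 2.62% passed the size rule as higher and 2.98% as lower, and intervals lay above 0 for 43.8%, below 0 for 32.9% and to one side of 0 for 76.7%. The order of the 10 from lowest to highest ratio was Lpin1, Agpat2, Dgat2, Gpd1, Gpam, Pck1, Gpat4, Dgat1, Gk and Gpat3. Scaling by total counts shifted every ratio by -0.31, which leaves that order as it is, and the genes past the size rule went from 1128 higher and 1453 lower to 732 and 2320. Removing mitochondrially encoded genes from the totals reduced that shift to -0.013.

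**Figure D1:**
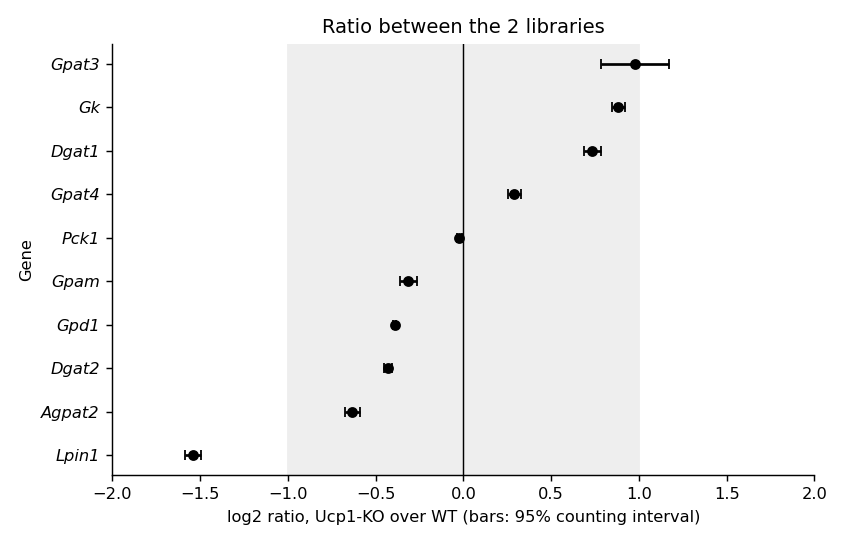
Each point is the log2 ratio of a gene, Ucp1-KO over WT (x axis), with its 95% counting interval as a bar, and the grey band is the range inside 2-fold. Lpin1 at -1.54 is the only gene outside the band, and Gpat3 at 0.98 lies at its upper edge.

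At the entry step the GPAT genes went different ways. Gpam (chromosome 19, 55055700 to 55115784 of GRCm39, minus strand), which encodes the mitochondrial enzyme GPAT1, had 16378 counts in WT and 10709 in Ucp1-KO. Its log2 ratio was -0.31 (-0.36 to -0.26). Gpat4 (chromosome 8, 23661281 to 23699042, minus strand), an enzyme of the endoplasmic reticulum, had 22206 and 22055 counts and a log2 ratio of 0.29 (0.25 to 0.33) after scaling for the libraries. Total-count scaling put Gpat4 at -0.02, so its direction depended on the scaling.

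Gpat3 (chromosome 5, 100993579 to 101046968, plus strand), the other enzyme of the endoplasmic reticulum, had 720 counts in WT and 1151 in Ucp1-KO. Its log2 ratio of 0.98 was the highest of the 10, and its interval of 0.78 to 1.17 lay on both sides of the 2-fold line. On the opposite strand the noncoding gene 4930458D05Rik overlaps 30.1% of the exon bases of Gpat3 and had 26 and 129 counts. Whether counting used the strand was not stated, and its part in the Gpat3 value was not tested.

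Ratios between genes of the same library do not depend on how the libraries are scaled. Per kilobase of exon, 1.52 Gpat4 counts were seen for each Gpam count in WT and 2.31 in Ucp1-KO, an increase of 1.52-fold (1.45 to 1.59). For Gpat3 against Gpam the values were 0.143 and 0.349, an increase of 2.44-fold (2.13 to 2.81), and against Gpat4 the increase was 1.61-fold (1.40 to 1.84). The share of Gpam among the GPAT genes per kilobase was 37.5% in WT and 27.3% in Ucp1-KO, that of Gpat4 57.0% and 63.0%, and that of Gpat3 5.36% and 9.56%. Gpat2, the remaining mitochondrial form, stayed under 0.2% of the step in both libraries, with 37 and 11 counts.

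Agpat2 (chromosome 2, 26483061 to 26494637, minus strand), the main adipose AGPAT, whose loss causes lipodystrophy, had 25648 counts in WT and 13428 in Ucp1-KO. The normalized values were 23118 and 14898, so Ucp1-KO was at 64.4% of WT with a log2 ratio of -0.63 (-0.68 to -0.59). Of its exon bases 24.2% overlap the endothelial gene Egfl7 on the opposite strand, which had 7671 normalized counts in WT and 4046 in Ucp1-KO. The difference, Ucp1-KO minus WT, was -3624 normalized counts for Egfl7 and -8221 for Agpat2, and the part of Egfl7 reads in the Agpat2 value was not tested.

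The other AGPAT genes varied in direction. Agpat1 had 4023 and 4564 counts and a log2 ratio of 0.48 (0.39 to 0.57), and Agpat3 had 18123 and 12979 counts and a log2 ratio of -0.18 (-0.23 to -0.14). Agpat5 was at -0.26 (-0.40 to -0.13), and the weakly counted Agpat4 at 0.03 (-0.36 to 0.41). Per kilobase, Agpat2 made up 67.7% of the step in WT and 55.3% in Ucp1-KO, while Agpat1 made up 13.4% and 23.7%. The ratio of Agpat2 to Agpat1 was 5.05 in WT and 2.33 in Ucp1-KO, 0.461 times as high (0.431 to 0.494). Against Agpat3 it was 0.731 times as high (0.700 to 0.764).

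Lpin1 had the furthest ratio from 0 of all 10 genes. It encodes lipin 1, which makes diacylglycerol and also acts in the nucleus as a partner of PPAR-alpha and PGC-1alpha, and mice without it have fatty liver dystrophy with little fat tissue. The gene lies on chromosome 12 from 16584818 to 16703913 on the minus strand. It had 36016 counts in WT (95% Poisson interval 35492 to 36546) and 10058 in Ucp1-KO. After normalization Ucp1-KO was at 34.4% of WT, with a log2 ratio of -1.54 (-1.59 to -1.50), and 5.03% of all genes examined had a lower one. Over the scalings tried the value ran from -1.85 to -1.45. Skeletal muscle also expresses Lpin1, muscle markers were lower in the same library, and the part of muscle RNA in the Lpin1 difference was not tested.

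Of the other lipins, Lpin3 was lower like Lpin1 and Lpin2 was higher. Lpin2 had 735 and 954 counts and a log2 ratio of 0.68 (0.48 to 0.88), and Lpin3 had 1661 and 817 counts and a log2 ratio of -0.72 (-0.90 to -0.55). There were 52.8 Lpin1 counts per kilobase for each Lpin2 count in WT and 11.4 in Ucp1-KO, 0.215 times as many (0.186 to 0.248). Against Lpin3 the ratio was 7.62 in WT and 4.33 in Ucp1-KO, 0.568 times as high (0.502 to 0.644). Lpin1 still made up most of the step, with 86.9% in WT and 75.8% in Ucp1-KO.

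At the last step the DGAT enzymes, which are not related in sequence, differed in opposite directions. Dgat1 (chromosome 15, 76385083 to 76396476, minus strand), known for esterifying fatty acids that were taken up or released from stores, had 11520 counts in WT and 15560 in Ucp1-KO. Its log2 ratio was 0.73 (0.68 to 0.78). Dgat2 (chromosome 7, 98802491 to 98831991, minus strand), known for working with newly made fatty acids at the droplet surface, had 99345 and 59923 counts and a log2 ratio of -0.43 (-0.45 to -0.41). Per kilobase there were 0.154 Dgat1 counts for each Dgat2 count in WT and 0.345 in Ucp1-KO, an increase of 2.24-fold (2.16 to 2.32).

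Dgat2 stayed the larger of the pair, at 86.7% of the step in WT and 74.4% in Ucp1-KO. Of the Dgat1 exon bases, 54.6% are shared with Hsf1, a heat shock transcription factor on the opposite strand, which had 1112 normalized counts in WT and 1286 in Ucp1-KO. Dgat1 was higher in Ucp1-KO by 6879 normalized counts and Hsf1 by 174, and the part of Hsf1 reads in the Dgat1 value was not tested.

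**Figure D2:**
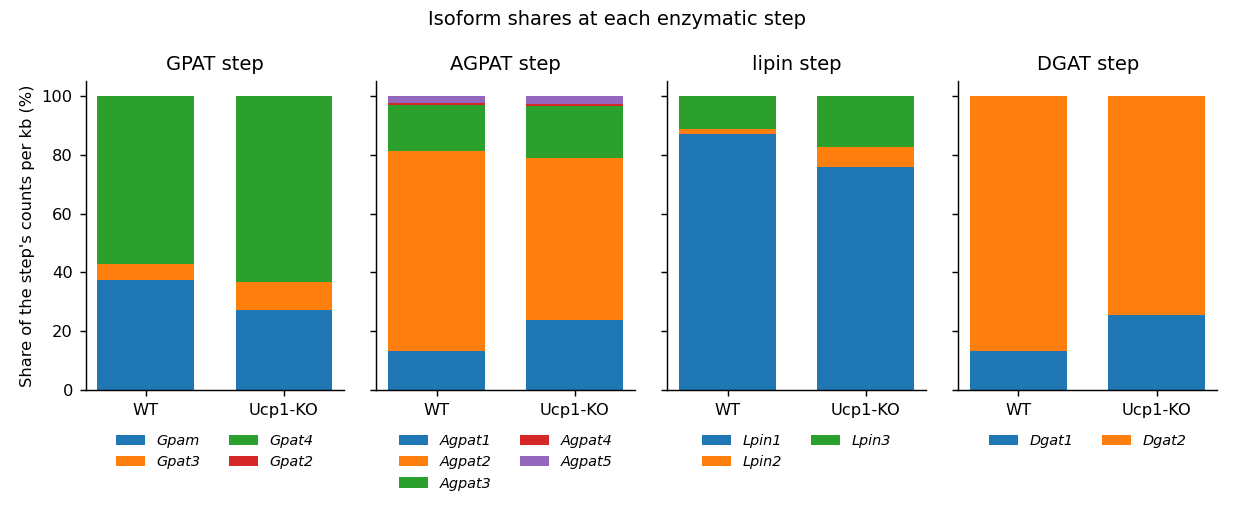
Stacked bars give the share of each gene in the counts per kilobase of its enzymatic step (y axis, percent) in the WT and the Ucp1-KO library, with 1 panel per step. The share was lower in Ucp1-KO for 1 of the 10 genes at each step, Gpam from 37.5% to 27.3%, Agpat2 from 67.7% to 55.3%, Lpin1 from 86.9% to 75.8% and Dgat2 from 86.7% to 74.4%.

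The sources of glycerol 3-phosphate were compared next. Gpd1 (chromosome 15, 99615396 to 99622893, plus strand), which reduces the glycolytic intermediate dihydroxyacetone phosphate, had 466500 counts in WT and 288750 in Ucp1-KO. It was the most abundant of the 10 in either library and held 53.1% of their counts in WT and 48.5% in Ucp1-KO. Its log2 ratio was -0.39 (-0.40 to -0.38). Skeletal muscle expresses Gpd1 as well, and the part of muscle RNA in this value was not tested either. The noncoding gene Gm16537 overlaps 53.1% of its exon bases on the opposite strand and was not analysed here.

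Pck1 (chromosome 2, 172994744 to 173001066, plus strand), the cytosolic carboxykinase that sets the pace of glyceroneogenesis, had 182573 and 145880 counts. The normalized values were 164564 and 161845, which is 98.3% of WT. Its log2 ratio of -0.02 (-0.04 to -0.01) was the closest to 0 of the 10 and changed sign with the scaling, to 0.06 where 3 reference genes, Tbp, Hsp90ab1 and Gtf2b, were set to 0. The study's PCR reference genes are named Tbp, Hsp90 and Tf2b, and the last pair was taken here as Hsp90ab1 and Gtf2b. They had log2 ratios of -0.38, -0.10 and 0.21.

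Gk (chromosome X, 84745537 to 84820435, minus strand), which returns glycerol to the pathway, had 18409 counts in WT and 27567 in Ucp1-KO. The normalized values were 16593 and 30584, so Ucp1-KO was at 184% of WT, with a log2 ratio of 0.88 (0.84 to 0.92). Of all genes examined, 91.1% had a lower ratio. The gene is X-linked, the libraries differed in sex-linked transcripts, and the part of sex in its value was not tested. Per kilobase there were 0.0465 Gk counts for each Pck1 count in WT and 0.0872 in Ucp1-KO, an increase of 1.87-fold (1.82 to 1.93). Against Gpd1 the increase was 2.42-fold (2.35 to 2.49), and against Aqp7, the glycerol channel of adipocytes, 1.48-fold (1.42 to 1.53). Of the summed counts per kilobase of these 3 sources, Gpd1 held 74.1% in WT and 68.1% in Ucp1-KO, Pck1 24.8% and 29.4%, and Gk 1.15% and 2.56%. Without division by length, the Gk share was 2.76% in WT and 5.96% in Ucp1-KO. The 3 genes thus differed among themselves, with Gpd1 lower, Pck1 close to the WT level and Gk higher.

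**Figure D3:**
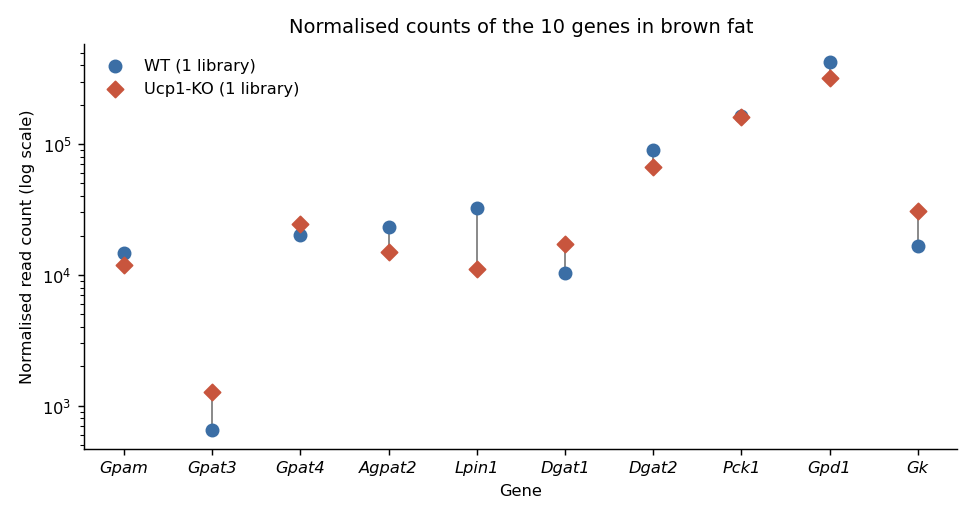
Normalized read counts of the 10 genes (y axis, log scale), with a circle for the WT and a diamond for the Ucp1-KO library joined by a line. Lpin1 has the longest line, from 32463 to 11159, and the Pck1 symbols overlap at 164564 and 161845.

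Levels were compared between genes as RPKM, the counts divided by kilobases of exon and by the library total. That total includes mitochondrially encoded genes, at 22.4% in WT and 36.7% in Ucp1-KO. RPKM values were therefore read between genes of the same library, not from WT to Ucp1-KO. In WT the order was Gpd1 (2786), Pck1 (931), Dgat2 (311), Agpat2 (108), Lpin1 (57.2), Dgat1 (47.8), Gk (43.3), Gpat4 (41.2), Gpam (27.2) and Gpat3 (3.88). In Ucp1-KO it was Gpd1 (1716), Pck1 (740), Dgat2 (186), Gk (64.6), Dgat1 (64.2), Agpat2 (56.1), Gpat4 (40.7), Gpam (17.7), Lpin1 (15.9) and Gpat3 (6.17). Lpin1 was thus the fifth gene in WT and the ninth in Ucp1-KO. The intervals of Gk (63.5 to 65.7) and Dgat1 (62.8 to 65.7) overlapped in Ucp1-KO. With the longest transcript as length, Dgat1 came after Gk and Gpat4 in WT, Lpin1 came before Gpam in Ucp1-KO and Agpat2 before Dgat1, so the order of these neighbours is not settled. Gpd1 and Pck1 stood above 99.9% of the genes examined that have a length, in both libraries.

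**Figure D4:**
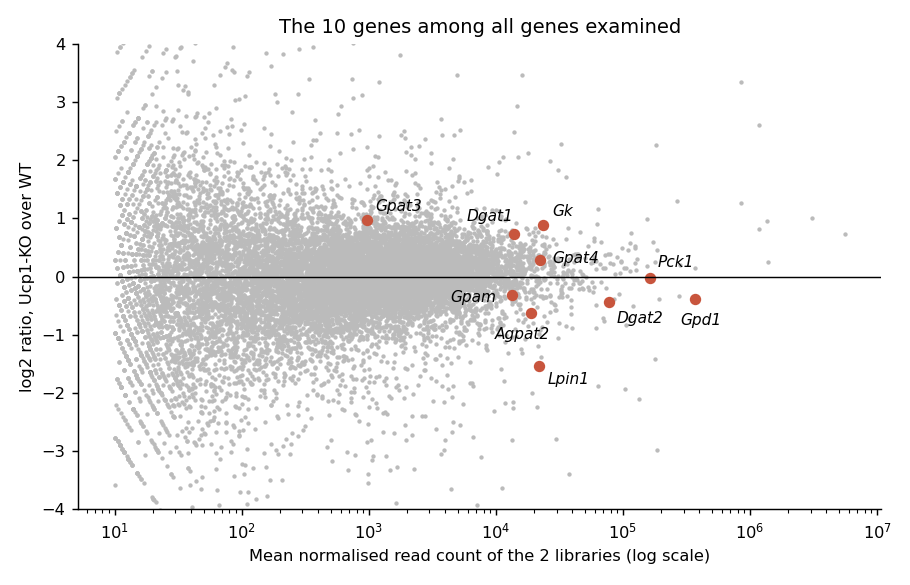
Mean normalized count of both libraries (x axis, log scale) against the log2 ratio, Ucp1-KO over WT (y axis), for the genes examined in grey and the 10 genes in red. The y axis runs from -4 to 4 and leaves out 153 genes. Gpat3 lies at a mean of 963, and the other 9 lie among the abundant genes, from 13322 for Gpam to 370417 for Gpd1.

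Other genes of glycerol 3-phosphate metabolism and of the carbon path into glyceroneogenesis were described from a list of 14, of which 12 were examined. The list also holds Gpd2, which uses glycerol 3-phosphate up, and Pdk4, a kinase that restrains pyruvate oxidation. The median log2 ratio of the 12 was 0.35, with 9 of the 12 above 0. That median was 0.04 with total counts and 0.13 with adipocyte markers set to 0. How many lay above 0 also depended on the scaling, since total counts shifted every ratio by -0.31. The size rule was passed by 3 of the 12 as higher and by none as lower, beside 7.42% and 9.55% of all genes examined. Pck2, the mitochondrial carboxykinase, had 1861 and 4688 counts and a log2 ratio of 1.63 (1.52 to 1.74). Gk5, a glycerol kinase relative, had 204 and 593 counts and a log2 ratio of 1.84 (1.51 to 2.18). Aqp3, a glycerol channel, had 2 and 36 counts, and its ratio of 4.13 had an interval of 1.81 to 9.85.

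Pck1 still outweighed Pck2, by 222 to 1 per kilobase in WT and 70.4 to 1 in Ucp1-KO. Gpd2, the mitochondrial dehydrogenase, had 58037 and 40768 counts and a log2 ratio of -0.21 (-0.24 to -0.18), closer to 0 than that of Gpd1. The ratio of Gpd1 to Gpd2 was 20.9 in WT and 18.4 in Ucp1-KO, 0.881 times as high (0.864 to 0.898). Gpd1l, a Gpd1 relative, was at 0.13 (-0.01 to 0.26). Gk2 was at 0 in both libraries.

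All 16 genes of a list of other acyltransferases, lipins, lipin regulators and droplet-loading proteins were examined. The median log2 ratio was -0.17, and 4 passed the size rule as lower and none as higher. Of all genes examined, 9.55% passed it as lower and 7.42% as higher. The 4 were counted weakly. Mogat1 and Mogat2, which acylate monoacylglycerol, had 247 and 48 counts and 115 and 31 counts, with log2 ratios of -2.05 (-2.76 to -1.42) and -1.58 (-2.50 to -0.76). Gpat2 was at -1.41 (-3.14 to -0.02). Fitm1, a droplet protein mainly of skeletal muscle, had 145 counts in WT and 2 in Ucp1-KO, a ratio of -5.59 with an interval of -11.2 to -3.36, beside the muscle markers with their median of -2.69.

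Transcription regulators that are known to act on these enzymes also differed in both directions. Of 12 examined, 1 passed the size rule as higher and 2 as lower, beside 7.42% and 9.55% of all genes examined. The median log2 ratio was -0.21. Ppargc1a, which encodes PGC-1alpha, had 4105 counts in WT and 12332 in Ucp1-KO, with a log2 ratio of 1.89 (1.81 to 1.96). Mlxipl, which encodes the glucose-responsive factor ChREBP, had 24565 and 8441 counts and a log2 ratio of -1.24 (-1.29 to -1.19). Srebf1, the source of the lipogenic factor SREBP-1, had 7871 and 2907 counts and a log2 ratio of -1.14 (-1.23 to -1.05).

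The cell types of the depot were described by marker lists beside the 10 genes. No marker of these cell type lists was at 0 in either library. The 12 adipocyte markers had a median log2 ratio of 0.22, which was -0.09 with total counts. With size factors 8 were higher and 4 lower in Ucp1-KO, from -1.90 to 0.84, with Fabp4 at 0.15 and Cd36 at 0.25. The lowest, Retn, the adipokine resistin, passed the size rule at -1.90. The 12 took 1.89% of the WT and 1.86% of the Ucp1-KO counts, and summed to 901773 and 1100922 after normalization. Shares of counts given here are of totals that include mitochondrially encoded genes, at 22.4% in WT and 36.7% in Ucp1-KO. With the adipocyte marker median set to 0, Lpin1 was at -1.76, Agpat2 at -0.85, Dgat2 at -0.65, Gpd1 at -0.61 and Gpam at -0.53. Under the same scaling Gk was at 0.66, Gpat3 at 0.76 and Dgat1 at 0.51, while Gpat4 was at 0.07 and Pck1 at -0.24. The 10 endothelial markers were all lower, with a median of -0.87 (Kdr -0.87, Pecam1 -0.47, Emcn past the size rule at -1.39), and took 0.253% of the WT and 0.122% of the Ucp1-KO counts. The 12 macrophage markers had a median of 0.19, which was below 0 with total counts or with adipocyte markers set to 0 (Lyz2 0.81, Mrc1 0.25) at 0.0136% and 0.0140% of counts, with 8 higher and 4 lower in Ucp1-KO. Cd68, Itgam, Fcgr1 and Trem2 passed the size rule as higher, as did 7.42% of all genes examined. The lower macrophage markers were Cd163 at -0.47 (-0.67 to -0.26), C1qc at -0.23, Adgre1 at -0.21 and Csf1r close to 0. The 10 fibroblast and preadipocyte markers had a median of -0.19 (Col3a1 -0.07, Col1a1 -0.12). Of these 9 were lower and 1 higher in Ucp1-KO, from -0.68 to 0.09. The part of these cell types in the values of the 10 genes was not tested.

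**Figure D5:**
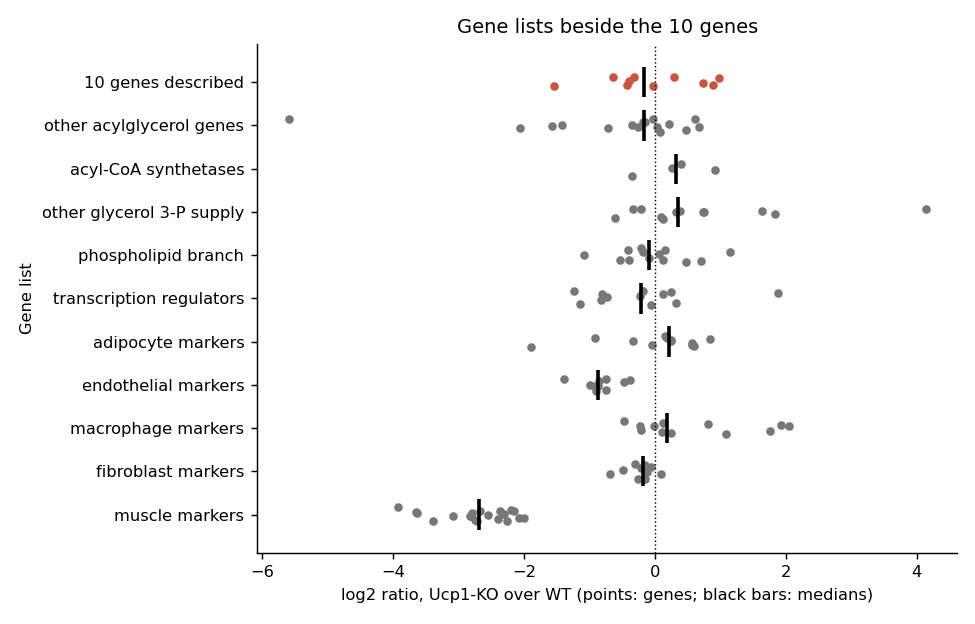
Each point is a gene's log2 ratio, Ucp1-KO over WT (x axis), grouped by list (y axis), and black bars are the medians of the genes with a mean normalized count of at least 10. The 10 genes, in red, spread from -1.54 to 0.98 around a median of -0.17, while the muscle markers lie around a median of -2.69.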

How the data were processed

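Interscapular brown fat of WT and Ucp1-KO mice was sequenced, 1 library per genotype. Per the labels, RNA was poly-A enriched and libraries were directional. The authors deposited featureCounts output, as raw counts for each gene with no normalization. The submitters' processing notes name Trim Galore, HISAT2 and the build mm39. Annotation and strand settings were not given in the sources used here, so overlapping genes are uncertain.

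Size factors were median-of-ratios (DESeq2 1.42.0, R 4.3.3), 1.11 for WT and 0.901 for Ucp1-KO. The log2 ratio used a pseudocount of 0.5. Low counts were mostly even (70.7% and 73.4% of counts from 1 to 10), so intervals were computed on read pairs, as counts divided by 2: exact Poisson for counts, conditional binomial for ratios, and the noncentral hypergeometric for ratios of ratios (SciPy 1.17.1). They cover counting error only, and the floor for a count of 0 was 3 read pairs. The interval code was tested on simulated data. Exon lengths and positions came from GENCODE M39 (GRCm39), matched by symbol for 97.1% of genes examined, and promoter windows from RefSeq.

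The 10 genes, lists and tests were chosen with earlier results of these data known. Named genes were the 10, Ucp1, list members past the size rule (otherwise the 3 most abundant), forms of the same step, the 2 most abundant markers of each list, and sex-linked and reference genes. Hsf1, Egfl7, Gm16537 and 4930458D05Rik were added after values were seen, as genes that overlap over 20% of the exon bases of a described gene, and Aqp7, Chpt1, Retn, Emcn, Cd68, Itgam, Fcgr1, Trem2, Cd163, C1qc, Adgre1, Csf1r and Pdk4 were also named after their values were seen. Alternatives were total counts, edgeR 4.0.16 TMM factors, totals without mitochondrial genes, adipocyte markers or reference genes set to 0, and other pseudocounts, filters, size rules and gene lengths.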

Additional observations from a re-analysis of the deposited data

How the results depend on the processing

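No paired analysis was possible because only 1 WT and 1 Ucp1-KO library were analysed here, and for the same reason no library could be left out. Scalings moved all ratios together. With total counts Ucp1 was at -3.28, the median of the 10 genes at -0.48, Gpat4 at -0.017 and the adipocyte marker median at -0.086, the last 2 with changed sign. With adipocyte markers set to 0, Ucp1 was at -3.20 and the median at -0.39. With reference genes set to 0, Ucp1 was at -2.89, the median at -0.081 and Pck1 at 0.063, with changed sign, and 1 gene of the 10, Gpat3, passed the size rule as higher. Summed counts gave -0.26 in place of the median. Lpin1 remained the 1 gene at least 2-fold lower under each alternative run. Of all genes, 732 passed the size rule as higher and 2320 as lower with total counts, 603 and 796 at a log2 ratio of at least 1.5, 414 and 566 with the interval wholly beyond 2-fold, 2187 and 2844 without a filter, and 617 and 811 at a minimum mean of 50. The last 4 settings change how many genes can pass by construction. Depth limits Gpat2, Fitm1 and Aqp3, whose intervals are wide. Shares within a step depended on the length used. Without division by length, the share difference, Ucp1-KO minus WT, was 3.21 in place of 1.41 percentage points for Gk among the sources (2.12 with the longest transcript), 1.56 in place of 4.19 for Gpat3 among the GPAT genes and -2.10 in place of -0.95 for Pck1 beside Pck2.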

Other observations

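Fatty acids enter the pathway as acyl-CoA. The 4 examined long-chain acyl-CoA synthetases of 5 had a median log2 ratio of 0.33. That median was 0.02 with total counts and 0.10 with adipocyte markers set to 0. Acsl1, the main synthetase of brown fat, had 96923 counts in WT and 94046 in Ucp1-KO, and its ratio was 0.26 (0.24 to 0.27). The shift of -0.31 with total counts is larger in size than this ratio, so the direction of Acsl1 depended on the scaling. Acsl5 had 30191 and 19314 counts and a ratio of -0.34 (-0.38 to -0.31), and Acsl4, which prefers arachidonic acid, had 1682 and 2585 counts and a ratio of 0.92 (0.79 to 1.05).

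Phosphatidic acid and diacylglycerol are also drawn into phospholipids. The 13 genes of that branch had a median log2 ratio of -0.10. The size rule was passed by 1 as higher and by 1 as lower, beside 7.42% and 9.55% of all genes examined. Pcyt2, which makes the activated ethanolamine of phosphatidylethanolamine synthesis, had 6577 and 2519 counts and a ratio of -1.08 (-1.18 to -0.99). Plpp2, a lipid phosphate phosphatase, had 247 and 443 counts and a ratio of 1.14 (0.82 to 1.47). Chpt1, the choline phosphotransferase that competes with the DGAT enzymes for diacylglycerol, had 43021 and 37872 counts and a ratio of 0.12 (0.09 to 0.14). Its direction depended on the scaling, as total counts shifted every ratio by -0.31 and adipocyte markers set to 0 by -0.22.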
